A study of Mus musculus with 6 samples.

Results

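The regions described here are 733 stretches of mouse chromatin that carried a RUNX1 peak in both libraries made 6 h after hCG, in no library made before hCG, and far from any protein-coding gene. They were selected on measured peak calls. Overlapping peaks of the 6 h libraries were merged, and a merged region was kept if it held a peak of both, which gave 17190 regions. Of these, 14355 overlapped no peak of either 0 h library. A region belonged to the set if it was also narrower than 2000 bp and its summit lay outside every annotated gene, over 1 kb from every gene end and over 50 kb from the nearest end of a protein-coding gene. The 733 remote regions were 4.26% of the 17190 replicated 6 h regions. They were 31.7% (95% Clopper-Pearson interval 29.8 to 33.6) of the 2313 intergenic regions found only at 6 h, and intervals of this kind cover counting error only. The absence of a 0 h peak, the presence of 2 peaks at 6 h and the position are what chose the regions, so these are not results.

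RUNX1 was mapped by chromatin immunoprecipitation and sequencing (ChIP-seq) in granulosa cells, which line the ovarian follicle and nourish the oocyte. All mice were CBA x C57BL/6 F1, aged 21 days per the labels, and were primed for follicle growth with 5 IU of equine chorionic gonadotropin (eCG). The 0 h group is labelled pre-ovulatory and 0 h post-hCG. The 6 h group is labelled peri-ovulatory and was collected 6 h after 5 IU of human chorionic gonadotropin (hCG), which acts as the ovulatory surge and was given 46 h after eCG. Each group has 2 RUNX1 libraries and 1 pooled input. The treatment text is the same in every sample and describes the 6 h collection, so only the title and the time-point label set the 0 h samples apart. The labels do not say how many mice went into a library or whether replicates came from separate mice. Peak lists hold no RNA levels, so the labelled cell type was not checked against marker genes.

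RUNX1 is a transcription factor that binds DNA through its Runt domain, together with the partner CBFB, at a short core motif. It recruits coactivators or, through Groucho/TLE proteins, corepressors, and in granulosa cells it is induced by the ovulatory signal. Many binding sites of such factors lie far from genes, in enhancers that can act on promoters over long distances and that need not act on the nearest gene. The nearest coding gene is therefore used below only to say where a region lies.

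The libraries set a limit on what the absence of a 0 h peak means. The 0 h lists held 948 and 3135 peaks and the 6 h lists 18761 and 28671. The genome-wide background recovered from the deposited values came to 2.77 and 2.65 reads in replicates 1 and 2 of 0 h, and to 2.76 and 2.13 in those of 6 h. At that background a 0 h peak needed at least 20 reads at its summit in replicate 1 and 19 in replicate 2. That was 7.22 and 7.16 times the background. Remote regions had a median summit pileup of 41 reads in 6 h replicate 1 and 65 in replicate 2, which was 14.9 and 30.5 times the background of these libraries. In both 6 h libraries at once, 389 of the 733 regions (53.1%) were above 2 times the higher 0 h limit, 186 (25.4%) above 3 times and 47 (6.41%) above 5 times. The limit holds where the local background is at the genome-wide floor, which was so in both 6 h libraries for 199 regions. Of these, 77 (38.7%), 30 (15.1%) and 6 (3.02%) were above 2, 3 and 5 times the limit. The counts over all regions include 6 regions with a high local background and a fold under 3, for which the limit is higher. Over all 733 regions, the lowest pileup was 7.61 times the genome-wide background in 6 h replicate 1, close to the 0 h limit. In replicate 2 the lowest was 9.85 times, above that limit. A region without a 0 h peak can thus have had 0 h signal below the limit, and its 0 h level was not measured here.

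Fold enrichment, the authors' value for ChIP reads over the local background at the summit, ran from 1.63 to 48.9 in 6 h replicate 1, with a median of 9.02. In replicate 2 it ran from 1.96 to 82.3, with a median of 17.2. The fold was 10 or more in both libraries in 294 regions (40.1%), 20 or more in 45 and 30 or more in 14. The regions were narrow, with a median width of 465 bp, and 721 of them held 1 peak of each list. The summits of the replicates were a median of 29 bp apart and within 100 bp in 677 regions. The peaks had median widths of 320 and 452 bp in replicates 1 and 2, and the rule required them to overlap. Close summits were thus in large part set by the selection.

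**Figure D1:**
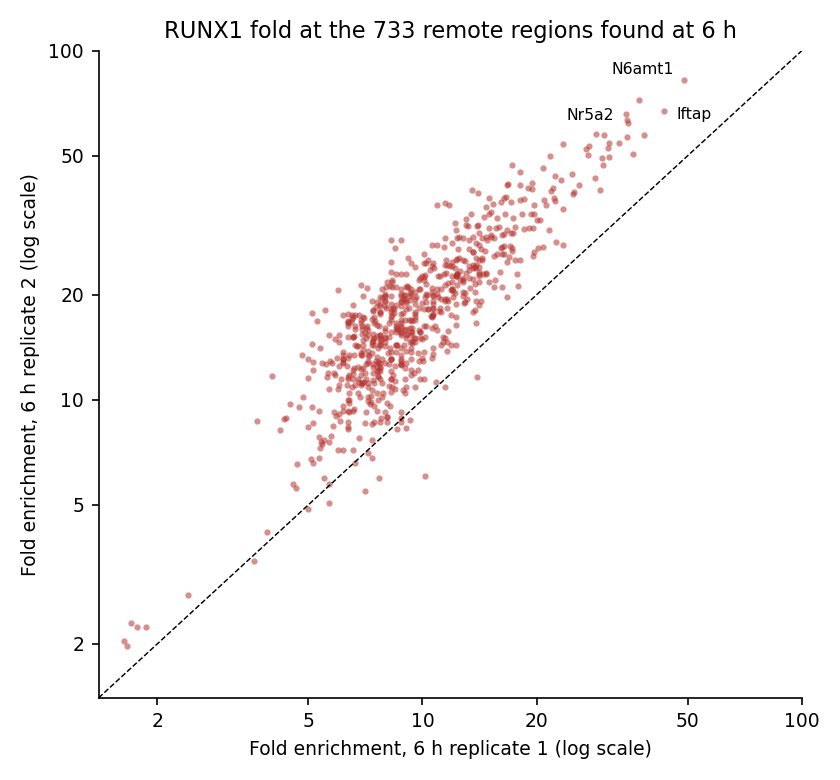
Fold enrichment of each of the 733 remote regions in 6 h replicate 1 (x axis) and replicate 2 (y axis), both on log scales, with a dashed line where both are equal. The cloud lies above the line, 718 regions have the higher value in replicate 2, and 6 regions with a fold under 3 in both stand apart at the lower left.

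The 10 regions with the highest mean percentile of fold within the 6 h lists had folds of 33.0 to 48.9 in replicate 1 and 50.6 to 82.3 in replicate 2. The first was chr16:87267674-87268831, with a fold of 48.9 and 82.3 and summit pileups of 183 and 257 reads. It lay 85990 bp from N6amt1, a protein methyltransferase gene, in an interval whose other flank is Adamts5, a secreted protease of the aggrecan matrix. The next, chr2:100579347-100580170, had 43.4 and 67.4 and was the most remote of the 10, at 981064 bp from Iftap, with the synaptic adhesion gene Lrrc4c on the other side. Both were among the 14 regions with a fold of 30 or more in each library.

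The region chr5:27930466-27931224, with a fold of 37.3 and 72.1, lay 75642 bp from Htr5a, a serotonin receptor gene, and was flanked on the other side by Insig1, which restrains sterol synthesis. A region at chr1:186833538-186834910 had 38.4 and 57.4 and lay 85096 bp from Rrp15, a ribosomal RNA processing gene. One at chr4:105557424-105558142 had 34.3 and 66.1 and lay 325038 bp from Plpp3, a lipid phosphate phosphatase gene. These 3 positions had summits at most 24 bp apart between the libraries.

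The sixth, chr1:137010389-137011249, had 34.6 and 63.2 and lay 50369 bp from Nr5a2. Nr5a2 encodes the nuclear receptor LRH-1, which granulosa cells need for ovulation and luteinisation. Of all 733 regions it was also the nearest to the 50 kb limit. The other 4 lay near Zswim6 (chr13:107619192-107620083, 34.8 and 62.2), Mmadhc (chr2:50690118-50691265, 34.7 and 56.5), Rwdd3 (chr3:120969888-120970445, 33.0 and 54.5) and Zfx (chrX:94018734-94019831, 35.9 and 50.6). Zfx is an X-linked transcription factor, Rwdd3 promotes protein sumoylation and Mmadhc acts in vitamin B12 metabolism. The sequence of the genome was not used here, so the bases of these regions are not shown.

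The remote regions ranked differently in the 2 libraries of 6 h. Ranked by fold among the 17190 replicated regions, their median percentile was 51.1 in replicate 1 and 65.8 in replicate 2. Regions found only at 6 h and within 50 kb of a coding gene stood at 47.6 and 57.2, those inside genes at 45.1 and 51.3, and those within 1 kb of a gene end at 42.0 and 36.0. The percentile was higher in replicate 2 for 540 of the 733 remote regions (73.7%), against 65.8% of the nearer intergenic regions, 59.8% of those inside genes and 39.7% of those at gene ends. The median ratio of the folds, replicate 2 over replicate 1, was 1.80 for the remote regions, 1.72 for the nearer intergenic ones, 1.65 inside genes and 1.39 at gene ends. Folds of different libraries are not on a common scale, so that only the difference of this ratio between positions can be read. The 108 remote regions with a 0 h peak stood higher than the remote regions without one, at 88.4 and 88.9, and had a ratio of 1.67. Regions with a 0 h peak stood higher at the other positions too. They were at 86.5 and 86.8 within 50 kb, 79.6 and 81.1 inside genes and 79.5 and 73.7 at gene ends. How much weight remote positions have among the 6 h regions thus depended on the library, and with 1 library on each side of that comparison it was not tested.

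**Figure D2:**
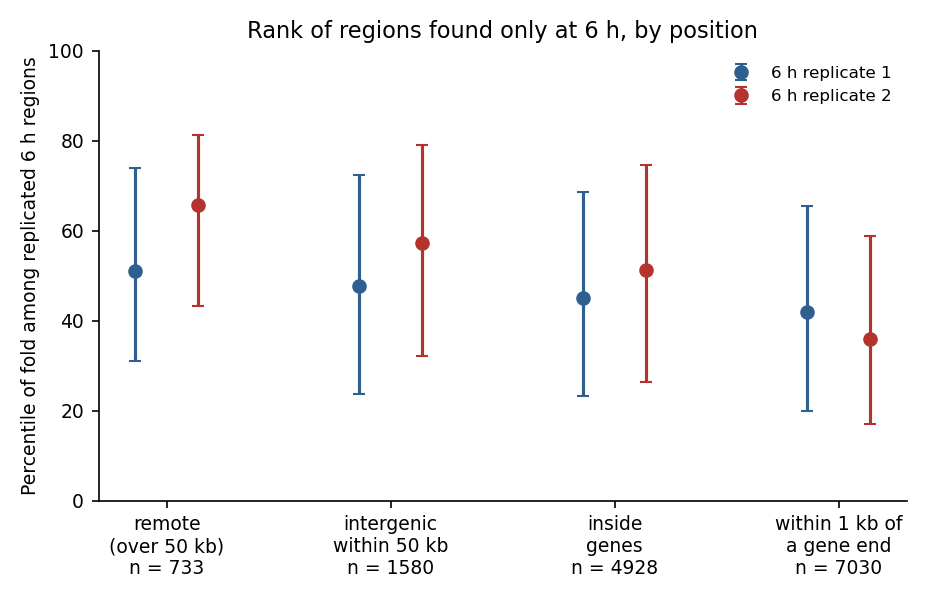
Percentile of fold (y axis) among the 17190 replicated 6 h regions for regions found only at 6 h, by position (x axis), with points for medians and bars for the middle 50% of regions. The medians of replicate 2 fall from 65.8 for remote regions to 36.0 at gene ends, and those of replicate 1 from 51.1 to 42.0.

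The local background beside the remote regions was low. It equalled the genome-wide floor, the lowest value the caller allows, in 30.8% and 31.1% of the remote regions in replicates 1 and 2. The shares were 15.8% and 15.8% for the intergenic regions within 50 kb, 13.8% and 13.9% inside genes and 9.87% and 9.86% at gene ends. The pileup, which is not divided by a local background, had medians of 41 and 65 reads for the remote regions, 44 and 64 within 50 kb, 42 and 59 inside genes and 46 and 54 at gene ends. On pileup the remote regions thus stood lowest in replicate 1 and highest in replicate 2.

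In 6 remote regions the fold was under 3 in both libraries and the local background was high. They included the 2 lowest of all, chr11:121982285-121982626 near Gm9631, with 1.63 and 2.04, and chrX:170758171-170758565 near Asmt, with 1.66 and 1.96. Their backgrounds were 65.9 to 215 reads in replicate 1 and 51.5 to 166 in replicate 2, against at most 38.6 and 31.0 in the other 727 regions, whose folds were at least 3.59 and 3.46. The Y chromosome, which cells of an ovary do not carry, held 4 of the remote regions. Their folds were 6.58 to 9.25 in replicate 1 and 11.5 to 19.2 in replicate 2. The source of the reads at these 10 positions was not tested.

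The 733 regions lay a median of 124 kb from the nearest coding gene end. There were 295 (40.2%) at 50 to 100 kb, 280 (38.2%) at 100 to 250 kb, 111 (15.1%) at 250 to 500 kb and 47 (6.41%) farther out, 20 of them over 1000 kb away. The 5 most remote were chr18:27454527-27455248 at 1700541 bp from Celf4, an RNA-binding protein gene, with 9.57 and 15.001, and neighbouring regions at chr10:47453356-47453898 and chr10:47454122-47455634, at 1639961 and 1638275 bp from the kainate receptor gene Grik2, with 4.21 and 8.21 and with 5.71 and 12.9. The remaining 2 were chr3:48176928-48177387 at 1566184 bp from the protocadherin gene Pcdh18, with 10.4 and 25.2, and chr1:114155903-114156490 at 1528421 bp from Cntnap5a, a contactin-associated protein gene, with 8.24 and 13.7. Celf4, Grik2, Pcdh18 and Cntnap5a are best known from the nervous system and stand beside large gene-poor tracts.

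The rule kept coding genes over 50 kb away and other genes only over 1 kb away, so that the nearest gene was mostly non-coding by construction. The nearest gene of any kind was a long non-coding RNA for 405 regions (55.3%), a pseudogene for 204 (27.8%) and a coding gene for 48 (6.55%). It lay within 10 kb in 166 regions (22.6%) and over 100 kb away in 79. Among them was chr16:93372190-93372633, 2546 bp from the microRNA gene Mir802.

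The density of regions fell with distance from coding genes. Per Mb of intergenic sequence it was 3.81 at 1 to 10 kb, 2.67 at 10 to 50 kb, 1.60 at 50 to 100 kb, 1.004 at 100 to 250 kb, 0.549 at 250 to 500 kb and 0.213 beyond 500 kb. The exact Poisson 95% intervals of neighbouring classes did not overlap, but they count each region as independent. For example, the interval was 1.42 to 1.79 at 50 to 100 kb and 0.889 to 1.13 at 100 to 250 kb. Over all sequence beyond 50 kb, 881.7 Mb, the density of remote regions was 0.825 per Mb, and it was 3.08 per Mb in the 511.1 Mb of nearer intergenic sequence, which is 3.74 times as high.

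Replicated 6 h regions that also had a 0 h peak fell with distance in a similar way, from 0.681 to 0.0226 per Mb over the same 6 classes. The share of 6 h regions without a 0 h peak was between 84.5% and 90.4% in the 6 distance classes. Beyond 50 kb it was 733 of 841 regions narrower than 2000 bp (87.2%, 95% interval 84.7 to 89.4), within 50 kb 85.7% (84.0 to 87.3), inside genes 86.9% (86.0 to 87.8) and at gene ends 81.8% (81.0 to 82.6). Lack of a 0 h peak was therefore about as frequent at remote positions as at other intergenic positions and inside genes, and the lower value stood at gene ends.

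**Figure D3:**
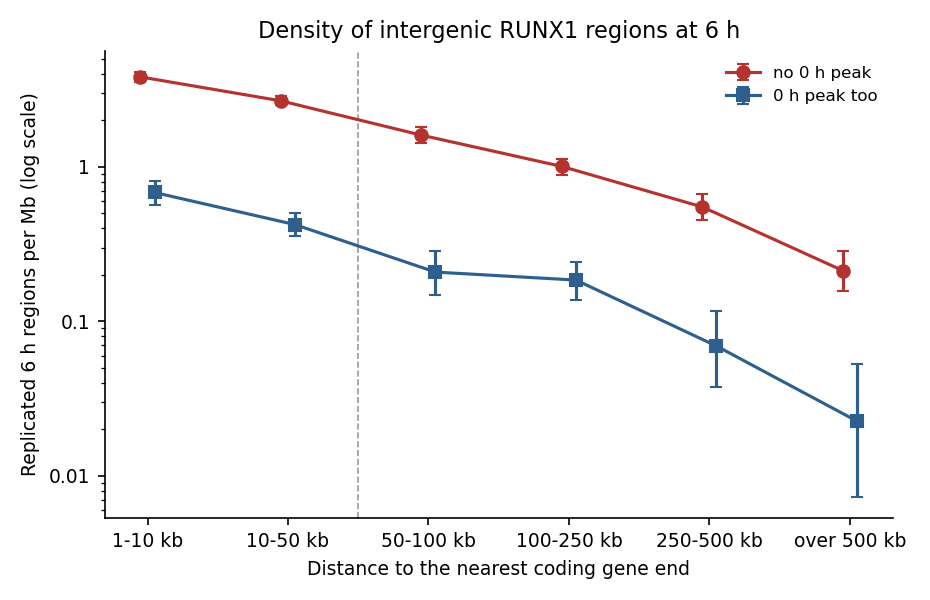
Replicated 6 h regions per Mb of intergenic sequence (y axis, log scale) by distance to the nearest coding gene end (x axis), for regions without a 0 h peak (circles) and with one (squares), with exact Poisson 95% intervals as bars. The dashed line marks 50 kb, beyond which the remote regions fall from 1.60 to 0.213 per Mb.

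Chromosome 13 had the highest density of remote regions, 74 regions or 1.99 per Mb (95% Poisson interval 1.56 to 2.50). The next were chromosome 2 with 1.24 (0.932 to 1.62) and chromosome 17 with 1.18 (0.799 to 1.67). The lowest autosome was chromosome 4 with 0.502 (0.325 to 0.741), and the X had 0.358 (0.234 to 0.524). On the X the nearer intergenic regions were also sparse, at 0.818 per Mb. On chromosome 13 they had 3.44 per Mb, against 3.08 over all chromosomes.

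Many remote regions lay near one another. Another remote region lay within 10 kb of 149 of them (20.3%) and within 100 kb of 337 (46.0%). Whether this is more than their density alone gives was not tested. A 0 h peak lay within 10 kb of 34 (4.64%) and within 100 kb of 158 (21.6%). The 0 h lists held 69 and 125 remote peaks, and the rule removed regions over a 0 h peak. The shares for 0 h peaks and for remote regions therefore cannot be set against each other. The genome has 2967 stretches over 100 kb between neighbouring coding genes, and 454 of these intervals (15.3%) held 724 of the remote regions. A single region was present in 311 intervals, and 143 intervals held 2 or more, 413 regions in all (56.3%). The share of intervals with a remote region rose with their length, from 8.20% at 100 to 250 kb to 33.4% above 1000 kb. The density per Mb fell instead, from 2.00 (95% Poisson interval 1.72 to 2.31) to 0.334 (0.285 to 0.388), counting the sequence over 50 kb from both flanking genes.

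The interval between Serp2 and Lacc1 on chromosome 14, 465 kb long, held 9 remote regions, the highest number. Serp2 encodes an endoplasmic reticulum stress-associated protein and Lacc1 an enzyme best known from macrophages. A group of 5 lay 58.9 to 68.1 kb from Serp2, with folds of 5.98 to 12.2 in replicate 1 and 5.99 to 20.2 in replicate 2. It surrounded a region with a 0 h peak at chr14:76622085-76623279 that had 39.2 and 56.3. The strongest of the 9, chr14:76951357-76951917, had 12.5 and 25.5 and lay 70.1 kb from Lacc1. The interval also held 4 other regions with a 0 h peak.

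The interval between Enc1, an actin-binding kelch protein gene, and Arhgef28, a gene for a guanine nucleotide exchange factor, held 7 on chromosome 13. Of these, 6 lay between 258 and 339 kb from Enc1, and the highest by mean percentile, chr13:97591576-97592113, had a fold of 16.4 and 29.9. Another, chr13:97554505-97554944, had the highest fold of replicate 2, with 11.5 and 36.5. The seventh was weak, with 4.98 and 4.87.

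Between Nr5a2 and Ptprc, the gene of the leukocyte antigen CD45, 1102 kb of chromosome 1 held 6 remote regions. All lay on the side of Nr5a2, at 50.4, 117, 123, 188, 238 and 262 kb from it. The region at 50.4 kb, described above, had a fold of 34.6 and 63.2, and the other 5 had 6.18 to 12.3 in replicate 1 and 9.31 to 23.0 in replicate 2. A region with a 0 h peak, chr1:137078931-137080371, lay between those at 117 and 123 kb and had 31.1 and 42.3. On the other side of Nr5a2 there were 2 more, at 56152 and 73235 bp, so that Nr5a2 was the nearest coding gene of 8 remote regions, more than any other gene. Serp2 followed with 7 and the small GTPase gene Rnd3 with 6.

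The interval between Tbc1d1, a Rab GTPase-activating protein gene, and Gm38457 on chromosome 5 held 6, and no region with a 0 h peak. Its strongest remote region, chr5:64651001-64651875, had 31.1 and 54.3, and a neighbour at chr5:64647794-64648281 had 30.8 and 52.8. A 6 h-only region outside the rule in this interval, chr5:64610337-64611498, was stronger, with 37.3 and 70.04. The other 4 had 4.71 to 9.04 and 9.55 to 18.5. Between Maf, a bZIP transcription factor gene, and Dynlrb2 on chromosome 8 there were also 6, all over 368 kb from Maf. The strongest, chr8:116375726-116376486, had 22.3 and 43.7 and lay 669 kb from Maf and 129 kb from Dynlrb2. A further 4 intervals held 6 each, between Rnd3 and Tas2r134, Foxo1 and Cog6, Irf2bp2 and Tomm20, and Cstad and 1700001O22Rik. In the last of these no remote region had a fold above 7.80 and 11.5.

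**Figure D4:**
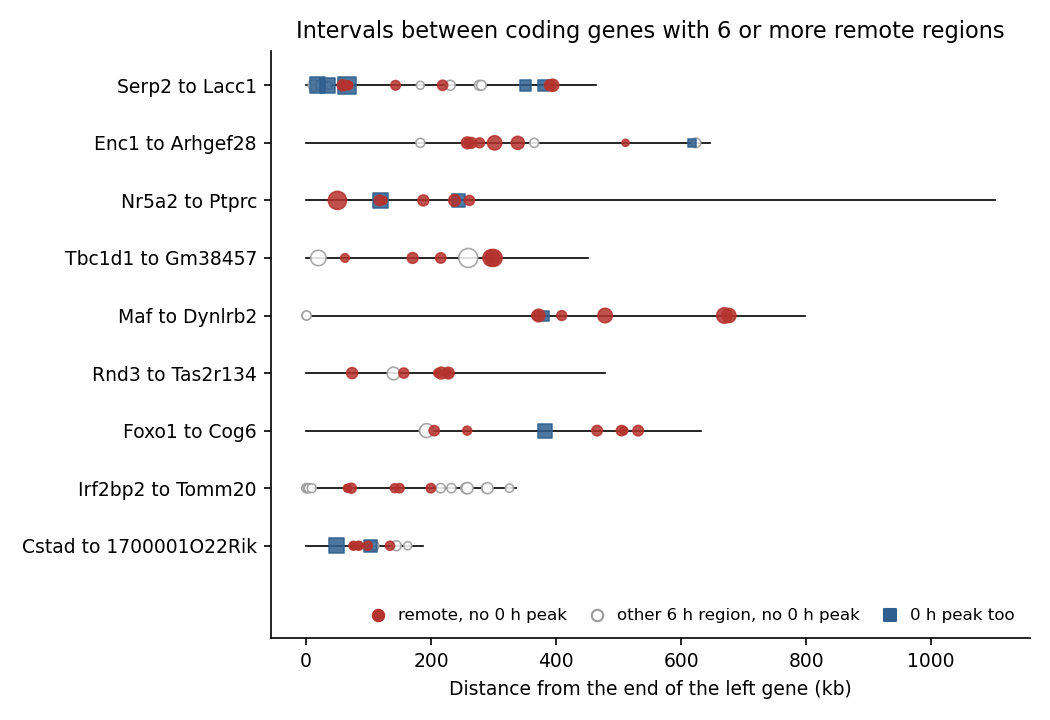
The 9 intervals between coding genes that held 6 or more remote regions, each drawn as a line from its left gene (x axis, distance from the end of the left gene in kb), with larger marks for a higher fold in 6 h replicate 2. Filled circles are the remote regions, open circles other 6 h regions without a 0 h peak, and squares regions with a 0 h peak, and the Nr5a2 interval is filled only near Nr5a2.

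The genes beside the remote regions were counted over 8 lists, chosen with earlier results of these data known. Over all 21900 coding genes, 2.35% were the nearest coding gene of a remote region and 4.05% flanked an interval that held one. Genes that stand beside large gene-free intervals can score more often, and of the 4744 coding genes beside an interval over 100 kb, 18.5% were beside one with a remote region. Densities were computed as remote regions per Mb of interval sequence over 50 kb from both flanks, which was 0.720 over all intervals. Since both the share and the density depend on interval length, each list's intervals are also set beside the value that all intervals of the same 4 length classes give. No test was made of these counts. The Poisson intervals count each region as independent, although 46.0% of the remote regions lay within 100 kb of another. They are too narrow where regions lie in groups. Whether an interval includes a value is therefore no test of a difference.

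Of the follicular genes, which mark growing follicles and steroid synthesis, 3 of 20 (15%) were a nearest coding gene and 5 flanked an interval with a remote region. Of the 9 that stood beside an interval over 100 kb, those 5 made up 55.6%, against 18.5% of all such genes. They were Nr5a2, Fst, Inhba, Lhcgr and Fshr. The receptors of both gonadotropins, Lhcgr for luteinising hormone and hCG and Fshr for follicle-stimulating hormone, are neighbours on chromosome 17, and the 193 kb between them held 2 remote regions. The first, chr17:88885482-88886061, had a fold of 14.6 and 26.7 and lay 93690 bp from Lhcgr. The second, chr17:88892107-88893354, had 16.8 and 41.4 and lay 92560 bp from Fshr. The same interval held 4 other replicated 6 h regions, 1 of them with a 0 h peak.

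A region at chr13:114760712-114761483, with 18.1 and 45.0, stood in an interval beside Fst, whose product follistatin binds activin, but was 302069 bp from it and 57102 bp from Mocs2. The density in the 12 intervals beside follicular genes was 3.96 per Mb (95% Poisson interval 2.17 to 6.65, 14 regions), against 0.812 for their length classes. The intervals beside Nr5a2 held 8 of the 14 regions, and without them the density was 2.48 per Mb (0.910 to 5.40), a comparison added after the data were seen. By interval, 5 of 12 (41.7%) held a remote region, against 16.4% for their length classes.

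Of the ovulatory genes, induced by the hCG signal, 2 of 20 (10%) were a nearest coding gene, Il6 and Cebpb. With Runx1, Vegfa and Has2, 5 flanked an interval with a remote region, which was 45.5% of the 11 beside an interval over 100 kb. At Il6, a cytokine gene, chr5:29935286-29936604 lay 76984 bp away and had 18.04 and 37.4. Beside Runx1 itself, 3 remote regions lay in the 757 kb between Runx1 and Setd4. The strongest were chr16:93207515-93208317, with 19.5 and 31.0, and chr16:93219662-93220879, with 18.5 and 30.9, at 381880 and 393819 bp from Runx1 and nearer to Setd4. The third, close to Mir802, had 6.36 and 16.7.

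Has2, the hyaluronan synthase of the expanding cumulus matrix, was 493509 bp from chr15:57187884-57188250, which had 17.2 and 27.2 and was nearer to Slc22a22. Vegfa, an angiogenic growth factor gene, was 143266 bp from chr17:45873320-45874321, which had 12.9 and 25.02. The density beside ovulatory genes was 3.84 per Mb (1.92 to 6.87, 11 regions), against 1.15 for the length classes of their intervals. By interval, 5 of 13 (38.5%) held a remote region, against 12.8%.

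**Figure D5:**
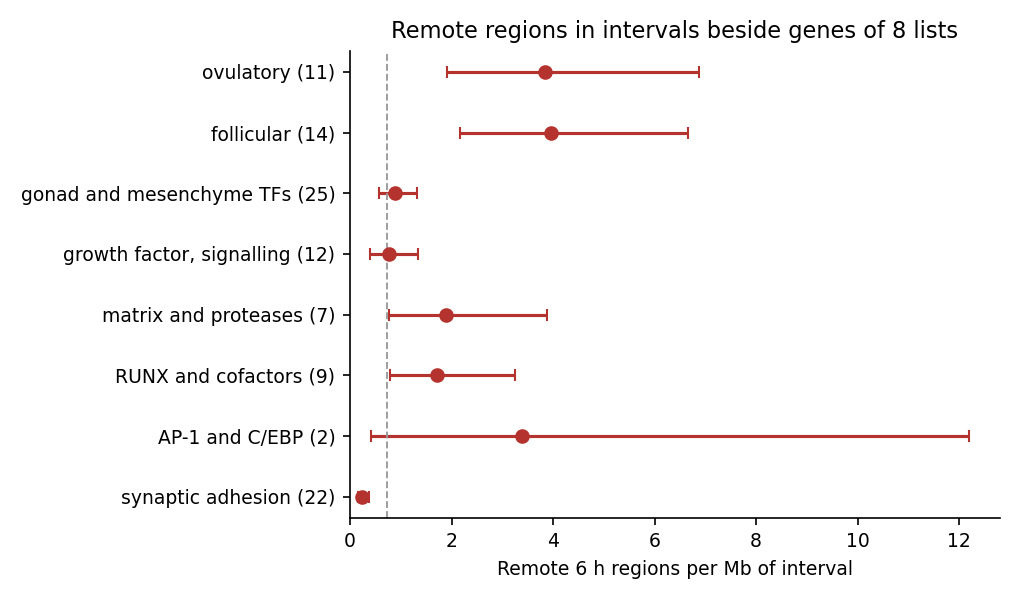
Remote regions per Mb of interval sequence over 50 kb from both flanking genes (x axis) in the intervals beside the genes of each list, with the number of regions in brackets and exact Poisson 95% intervals as bars. The dashed line marks 0.720 per Mb over all intervals, and the ovulatory and follicular lists stand at 3.84 and 3.96, the synaptic adhesion list at 0.243.

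The list of gonad and mesenchyme transcription factors had the most nearest genes, 13 of 30 (43.3%), and 15 (50%) flanked an interval with a remote region. All 30 stood beside an interval over 100 kb. The intervals were long, with a median of 548 kb, and 16 of 47 (34.0%) held a remote region, against 21.1% for their length classes. Their density was 0.887 per Mb (0.574 to 1.31), which includes the 0.578 of their length classes, and without Foxo1, beside which 7 of the 25 regions lay, it was 0.653 (0.387 to 1.03). The highest by mean percentile were chr13:6193058-6193953, with 19.7 and 36.1 at 322912 bp from Klf6, chr6:15568550-15569068, with 22.5 and 28.4 at 126823 bp from Foxp2, and chr18:83541793-83542309, with 16.0 and 23.3 at 469595 bp from Tshz1. Klf6, Foxp2 and Tshz1 encode zinc-finger or forkhead factors. Another lay at 657246 bp from Klf6 but nearer to Akr1e1 and had 11.6 and 24.4.

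Among the genes of growth factors and signalling, 6 of 30 were a nearest gene and 8 flanked an interval, 34.8% of the 23 beside an interval over 100 kb. A region at chr10:100161033-100161672 lay 60847 bp from Kitl, which encodes the KIT ligand by which granulosa cells signal to the oocyte, and had 16.9 and 25.6. Others lay near Slit2, a guidance ligand (chr5:47469361-47469753, 19.7 and 26.5), Id2, an inhibitor of bHLH factors (chr12:25239974-25240622, 12.4 and 22.9), and Spry2, a feedback inhibitor of receptor tyrosine kinases (chr14:105615547-105616330, 11.9 and 17.5). One at chr5:46203857-46204682 in the same interval as the Slit2 region had 12.4 and 21.4 but was nearest to Lcorl. The density was 0.769 per Mb (0.397 to 1.34), against 0.642 for the length classes, which lies within that interval, and 0.533 (0.230 to 1.05) without the intervals beside Spry2, below the length classes. By interval, 8 of 30 (26.7%) held a remote region, against 19.2%.

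For matrix and protease genes the count was 2 of 20 as nearest and 4 as flanking, 36.4% of the 11 beside an interval over 100 kb. There were 1.89 regions per Mb (0.760 to 3.89), against 0.798 for the length classes, and 0.976 (0.201 to 2.85) without the interval beside Adamts9, which held 4 of the 7. By interval, 4 of 12 (33.3%) held a remote region, against 14.5%. Adamts9, a secreted metalloprotease gene, had 3 of the highest regions in the interval beside it, at 169025, 185920 and 227849 bp. Their folds were 16.4 and 37.9, 10.9 and 27.8, and 13.7 and 24.0. Thbs1, the gene of the matrix protein thrombospondin, was 524307 bp from a region with 8.48 and 27.2. The strongest of all remote regions counts here through Adamts5, at 1367070 bp.

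Of 10 RUNX family and cofactor genes, 2 were a nearest gene and 3 flanked an interval, 42.9% of the 7 beside an interval over 100 kb. The density was 1.71 per Mb (0.784 to 3.26), against 0.769 for the length classes. Without the intervals beside Tle4, which held 4 of the 9 regions, it was 1.38 (0.449 to 3.23), an interval that includes 0.769. By interval, 4 of 11 (36.4%) held a remote region, against 20.8%. Besides Runx1 these were Tle3 and Tle4, which encode Groucho-type corepressors that bind RUNX proteins. The region chr9:61663994-61664450 lay 245703 bp from Tle3 and had 20.7 and 46.3. Regions in the 2 intervals beside Tle4 had 17.3 and 33.2 at 267755 bp and 14.3 and 29.1 at 859357 bp, and both were nearer to other genes. Of 13 AP-1 and C/EBP genes, Jun and Cebpb were nearest genes, with chr4:95177547-95178444 (16.2 and 27.1, 125674 bp from Jun) and chr2:167765009-167765711 (7.86 and 10.5, 74952 bp from Cebpb). These 2 regions, in 2 of 4 intervals against 12.4% for the length classes, gave 3.39 per Mb (0.410 to 12.2), which includes the 1.11 of their length classes, and the 1 left without the interval beside Jun gave 5.40 (0.137 to 30.1).

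Of the 8 lists, that of neuronal cadherin and synaptic adhesion genes had the longest median interval, 1194 kb. Of its 38 genes, 7 (18.4%) were a nearest gene and 16 (42.1%) flanked an interval with a remote region, 45.7% of the 35 beside an interval over 100 kb. Their intervals held 0.243 regions per Mb (0.152 to 0.368), against 0.399 for their length classes. By interval, 15 of 59 (25.4%) held a remote region, against 26.8%. After the one beside Lrrc4c the highest by mean percentile was chr15:19665862-19666391 at 649901 bp from Cdh10, with 19.5 and 40.2. Regions in intervals of Slitrk5 (chr14:115040771-115041098, 20.7 and 27.4) and Cdh18 (chr15:24877857-24878417, 14.7 and 35.7) were nearest to Gpc5 and Basp1.

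The promoters of the nearest coding genes were then compared. By design no remote region overlapped a promoter window, defined as 250 bases before to 50 after an annotated start in the RefSeq table (GRCm38.p6). Of 402 nearest coding genes with a window, 194 (48.3%) had a replicated 6 h region over it, against 37.9% of all 17492 coding genes with a window. The RUNX core TGTGGT, searched on both strands, was present in 12.4% of all 21263 coding promoter windows. It was present in 9.82% of those with a 6 h region and 13.8% of those without, and in 17 (7.56%) of the 225 windows of nearest genes that had a 6 h region. A match is a string of letters and not a mapped site.

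The 2 such promoters whose genes lie nearest to the highest-ranking remote regions are shown, since in each the core motif lies within the 6 h region over the promoter. The remote regions themselves lie far from these promoters. The sequences are the 250 bases before the start, from RefSeq on GRCm38.p6, in the direction of the gene, with the core in capitals in either orientation (ACCACA is the reverse complement of TGTGGT).
Rwdd3: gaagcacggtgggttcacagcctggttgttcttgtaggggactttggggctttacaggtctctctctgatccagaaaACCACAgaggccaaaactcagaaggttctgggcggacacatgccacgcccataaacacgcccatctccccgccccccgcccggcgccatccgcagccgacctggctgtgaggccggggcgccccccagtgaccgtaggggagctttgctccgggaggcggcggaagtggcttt
Far1: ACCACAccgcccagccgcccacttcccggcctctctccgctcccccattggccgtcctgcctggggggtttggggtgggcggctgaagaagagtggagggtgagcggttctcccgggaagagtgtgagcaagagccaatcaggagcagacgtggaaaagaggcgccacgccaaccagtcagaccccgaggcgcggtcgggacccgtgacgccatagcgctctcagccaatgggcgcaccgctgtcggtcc

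The Rwdd3 promoter (chr3:121171696-121171945, minus strand) lay under a region found only at 6 h, chr3:121171297-121172195, with a fold of 15.4 and 30.002. That was lower than at the remote region, which had 33.0 and 54.5 and lay 185208 bp from the other end of the gene. The Far1 promoter (chr7:113513584-113513833, plus strand), of a gene for fatty alcohol synthesis, lay under a region that also had a 0 h peak, with 17.0 and 25.9.

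Whether remote positions took a larger share of all peaks after hCG was compared over the 4 libraries, on whole lists and not on the selected regions. Peaks over 50 kb from a coding gene and outside genes made up 7.29% (95% interval 5.71 to 9.13) and 3.99% (3.33 to 4.73) of the 0 h lists of replicates 1 and 2, and 4.70% (4.41 to 5.02) and 6.39% (6.11 to 6.68) of the 6 h lists. The 0 h values lay on both sides of the 6 h values. The mean share at 0 h was 5.64% ± 2.33 and that at 6 h was 5.55% ± 1.19 (both SD, n = 2). Subtracting 0 h from 6 h left -0.0889 percentage points, which is less than either SD (two-sided exact permutation test over the 4 libraries, p = 1). The smallest p this design allows is 0.333, and it measures only the spread between these libraries. Its sign changed when 0 h replicate 1 was left out, with 1.56, when 6 h replicate 1 was left out, with 0.756, and with lists of equal length, with 0.317. With a −log10 q of at least 20 it was -1.64 (exact permutation p = 0.667).

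The 10% of peaks with the highest fold were also compared with the 10% with the lowest. In 6 h replicate 1, 118 of 1875 (6.29%, 95% interval 5.24 to 7.49) and 50 (2.67%, 1.99 to 3.50) were remote, and in 6 h replicate 2, 232 of 2865 (8.10%, 7.12 to 9.16) and 116 (4.05%, 3.36 to 4.84). In 0 h replicate 2 there were 17 of 313 (5.43%, 3.20 to 8.55) and 6 (1.92%, 0.707 to 4.13). In 0 h replicate 1 there were 7 of 94 (7.45%, 3.05 to 14.7) and 4 (4.26%, 1.17 to 10.5), so that the intervals overlapped in both 0 h lists. Remote peaks were thus already present before hCG. Of the 69 and 125 remote peaks of the 0 h lists, 58 (84.1%, 95% interval 73.3 to 91.8) and 112 (89.6%, 82.9 to 94.3) overlapped a replicated 6 h region. The shares of all other 0 h peaks were 92.8% (90.9 to 94.4) and 94.9% (94.1 to 95.7).

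At the limits of the rule, the widest remote region, chr15:51729604-51731418, was 1815 bp wide with folds of 11.5 and 23.1, and the one region left out by width alone, chr10:21477886-21479898, was 2013 bp wide with 19.1 and 44.2. Just outside the 50 kb limit was chr4:16072730-16073181, 49730 bp from Ripk2, with 9.25 and 16.9. At the 1 kb limit, chr16:29982743-29983631 near Hes1 lay 1015 bp from the non-coding Gm32796 and had 14.5 and 33.4, and chr12:69460610-69461044 near Arf6, 970 bp from Gm40434, was left out with 10.2 and 19.5.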

How the data were processed

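Peak lists of 4 RUNX1 ChIP-seq libraries were analysed, 2 per time point, grouped by sample title. The inputs have no list of their own here. Per the submitters' processing notes the tools were Bowtie2 2.2.5 and MACS2, and the build was mm10. Single-end reads of 75 nt are stated per the labels' protocols. The version and settings of MACS2 are not given in the sources used here. Each deposited list gives, per peak, the authors' fold enrichment ratio, −log10 p-value and −log10 q-value. The deposited score column was not used. Fold was used to describe and rank peaks within a list. Across the 6 h lists only its ratio at the same region was taken, as a description.

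Peaks were merged on an overlap of 1 bp and placed against NCBI RefSeq genes of GRCm38.p6, from a table of 49980 genes, 21900 of them coding. Positions count from 1. Total reads are not in the lists. Summit pileup and local background were recovered from fold and p-value, taken as MACS2 computes them with a pseudocount of 1, to within 0.005 in −log10 p, and the recovery was tested on simulated data. Python 3.11.15, pandas 2.3.3, numpy 2.4.6 and scipy 1.17.1 were used.

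The regions, the gene lists and the rule for naming regions were chosen with earlier results of these data known. The rule named the 10 highest and 2 lowest regions by mean percentile of fold, the 5 intervals with the most regions, the 5 most remote regions, up to 5 per gene list and those at the limits. Regions near Nr5a2 beyond these, near Mir802, with a low fold or on the Y chromosome, and the promoters shown, were chosen after their values were seen. The length-class values of the gene lists, the densities without 1 gene, the counts at the background floor and the overlap of the other 0 h peaks were added after the data were seen. The only test was an exact permutation test over libraries. Alternatives were other distance limits, summits within 100 bp, a −log10 q of at least 20, no width limit, lists of equal length, a replicate block and leaving out each library. Motif counts at summits need the genome sequence, which was not used here. A region named by the rule in each of 2 gene lists is not reported here.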

Additional observations from a re-analysis of the deposited data

How the results depend on the processing

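The number of remote regions, 733, moved with the distance limit, to 438 at 100 kb, and ranged from 737 to 1710 when one library was left out, the highest without 6 h replicate 1, which leaves the longer 6 h list alone, against 769 without replicate 2. It was 677 with summits within 100 bp, 534 with a −log10 q of at least 20, 1099 at 25 kb, 734 without the width limit and 727 without the regions with a fold under 3, an alternative chosen after seeing the data. Of the 733 regions, 486 were among the 534, and the rest of the 534 were not remote regions under the main rule. Their share of the 6 h-only intergenic regions was 47.5% at 25 kb and 18.9% at 100 kb, and 31.1% to 34.1% with one library left out. The median of their mean percentile of fold was 65.0. The highest value was 77.3, with a −log10 q of at least 20, a limit that removes weaker peaks. The lowest were 53.5 without 6 h replicate 1 and 53.0 without replicate 2. These lowest values are percentiles in 1 list, over regions without a replicate, and so are not the same measure.

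The share of peaks beyond 50 kb, 6 h minus 0 h, reversed to 0.317 percentage points with lists of equal length, was -1.64 with a −log10 q of at least 20 and ranged from -1.74 to 1.56 with one library left out. The cause was not tested. With the replicate block it was again -0.0889, with differences of -2.58 and 2.40 for numbers 1 and 2. The labels do not say that a number marks shared animals, and with 2 pairs no pairing was taken from the data. Motif counts on other windows were not run. Signal under the lowest callable pileup was not detectable in any of the 4 libraries.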
